A study of Homo sapiens with 8 samples.

Results

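SLC5A3, the carrier that brings myo-inositol into cells with sodium, was read in human lung cells exposed to gaseous air pollutants, together with 7 other genes that cells use under osmotic stress. The 8 genes were chosen with earlier results of these data known, among them a higher SLC5A3 signal after both mixtures, so the tests of SLC5A3 are not independent evidence. They were the osmolyte carriers SLC5A3, SLC6A6, SLC6A12 and SLC38A2, the osmolyte enzymes AKR1B1 and ISYNA1, the inositol phosphate enzyme IMPA1, and NFAT5, the transcription factor of the osmotic response. Of these, 7 were read, out of 18377 genes with a probe set of their own on the array, and AKR1B1 was not analysed here. The cells were A549, a line from a human lung adenocarcinoma often used as a model of alveolar type II epithelium, grown on collagen-coated membranes from which the medium was taken off just before exposure, so that the cells met the gas directly. There were 4 groups of 2 arrays, all exposed for 4 hr and collected 9 hr later. Primary pollutants, named fresh urban mix in the labels, were a morning exposure to a synthetic mixture of urban hydrocarbons and nitrogen oxides, and their morning control had air in an incubator at the same hours. Photochemically altered (PCA) pollutants, named aged urban mix in the labels, were an evening exposure to the same chamber air after a day of sunlight, and their evening control had air at the same hours. The labels call the control air humidified and the methods call it incubator air, and the exposed cells had a water dish in their chamber. Each mixture was given in 1 run on 1 day, so mixture, time of day and run cannot be told apart, and standard errors here measure the spread between wells of a run. The arrays were normalized to one another, so the values do not carry the number of cells in a well. In RNA from whole wells, a change within cells and a change in which cells remained cannot be told apart either.

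A cell that loses water to a salty surrounding first gains ions and then replaces them with small organic osmolytes that do not disturb proteins. SLC5A3 takes up myo-inositol, SLC6A6 takes up taurine, SLC6A12 takes up betaine and SLC38A2 takes up neutral amino acids, while AKR1B1 makes sorbitol from glucose. NFAT5 binds the tonicity-responsive element and raises the genes of these proteins, most strongly in the kidney medulla but also in cultured cells kept in hypertonic medium. Myo-inositol is also made within the cell, by ISYNA1 from glucose 6-phosphate and by IMPA1 from inositol phosphate, and it is the base of the phosphoinositide lipids. The comparison addressed here was whether SLC5A3 moved alone or together with the other genes of this response.

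Values are log2 signals after robust multichip average normalization. The 8 arrays were fitted together in limma, and a gene is said to rise or fall only where the adjusted p (Benjamini-Hochberg, over all probe sets tested) was under 0.05 and the fold change reached 1.5. The standard deviation of log2 signal over all probe sets was 1.98 and 1.99 on the PCA arrays, against 2.04 to 2.07 on the other 6. With the genes divided by signal into 3 equal parts, the median log2 fold change after the PCA pollutants was 0.14 in the part of lowest signal and -0.13 in the part of highest signal, and after the primary pollutants these medians were 0.03 and -0.03. The keratin, aldo-keto reductase and other A549 genes were at a mean log2 signal of 12.03 to 12.19 over 12 genes. The type II genes were at 6.28 to 6.50 over 8 genes, with medians over the arrays between 5.42 for NKX2-1 and 7.67 for ABCA3, among them 6.34 for SFTPC and 7.34 for SFTPD, and SFTPA1 and SFTPA2 were not analysed here. Markers of leukocytes, fibroblasts, endothelium and airway cells were at 6.32 to 6.49 over 15 genes, with medians between 4.41 for the leukocyte gene PTPRC and 9.53 for the macrophage gene CD68, and 8.35 for the fibroblast gene COL1A1.

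SLC5A3 lies on chromosome 21, at 34073578 to 34106260 on the plus strand of GRCh38.p14. Its RefSeq annotation falls wholly inside that of MRPS6, a mitochondrial ribosomal protein gene that spans 34073578 to 34143030 on the same strand, and both genes start at the same base. Their promoter entries were identical, and promoters were found for 5 of the 9 genes looked up (SLC5A3, MRPS6, SLC38A2, AKR1B1 and ISYNA1). The 250 bases before that shared start are printed because they lie directly before the annotated transcripts of both genes, with each GC box (GGGCGG, read on both strands) in capitals.
SLC5A3 and MRPS6, chr21:34073328-34073577, plus strand: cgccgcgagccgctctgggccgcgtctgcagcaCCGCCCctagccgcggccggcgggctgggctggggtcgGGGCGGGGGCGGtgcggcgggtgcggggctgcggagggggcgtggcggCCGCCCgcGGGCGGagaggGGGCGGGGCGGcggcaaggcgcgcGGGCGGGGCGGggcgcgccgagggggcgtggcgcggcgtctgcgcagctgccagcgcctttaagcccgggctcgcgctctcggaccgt
The stretch was 84.8% G and C, against a median of 58.0% over all promoters. It held 9 GC boxes, 7 on the plus strand and 2 on the other, counting boxes that share a base. Of 35116 promoter windows of 300 bases (250 before and 50 after the start), 45.0% held at least 1 GC box and 0.419% held as many as 9. The core letters bound by NFAT5, TGGAAA, were not in the SLC5A3 window on either strand, nor was the shorter GGAAA, while 20.7% and 61.2% of all windows held them. The full tonicity-responsive element, which begins with the same TGGAAA, was in 4.92% of windows. Among the members with an entry it was found once, in SLC38A2, past the start rather than before it, at bases 28 to 38 of the transcript on the strand opposite to the gene. That site is shown in capitals within 30 bases, since it is the single full element met in these windows.
SLC38A2, chr12:46372726-46372755, minus strand: cgccttagaACGCCTTTCCAgtactgctag
A match is a description of letters and not evidence of binding, and a window of this size says nothing of elements elsewhere in a gene.

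SLC5A3 was higher after both mixtures, by a similar amount. After the primary pollutants its log2 signal was 10.03 and 9.88, against 9.08 and 9.21 in the morning controls. After the PCA pollutants it was 10.09 and 9.98, against 9.17 and 9.21 in the evening controls. All 4 exposed arrays thus lay above all 4 controls, with a gap wider than the spread within any group (SD 0.0345 to 0.104, n = 2). SLC5A3 rose after the PCA pollutants, by 0.85 on the log2 scale or 1.8-fold (standard error 0.0877, limma adjusted p = 0.00214). After the primary pollutants the log2 fold change was 0.81 (standard error 0.0877, 95% confidence interval 0.602 to 1.01, limma adjusted p = 0.234), which did not pass the test. It had the smallest p of the 17381 genes tested and was second by fold change. Over both mixtures against both controls, a comparison made of the same 8 arrays, SLC5A3 rose by 0.83 (standard error 0.062, limma adjusted p = 0.00168). The difference between the PCA and the primary response was 0.04 (95% confidence interval -0.25 to 0.327, limma adjusted p = 0.905), and the controls differed by 0.04 between evening and morning.

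**Figure D1:**
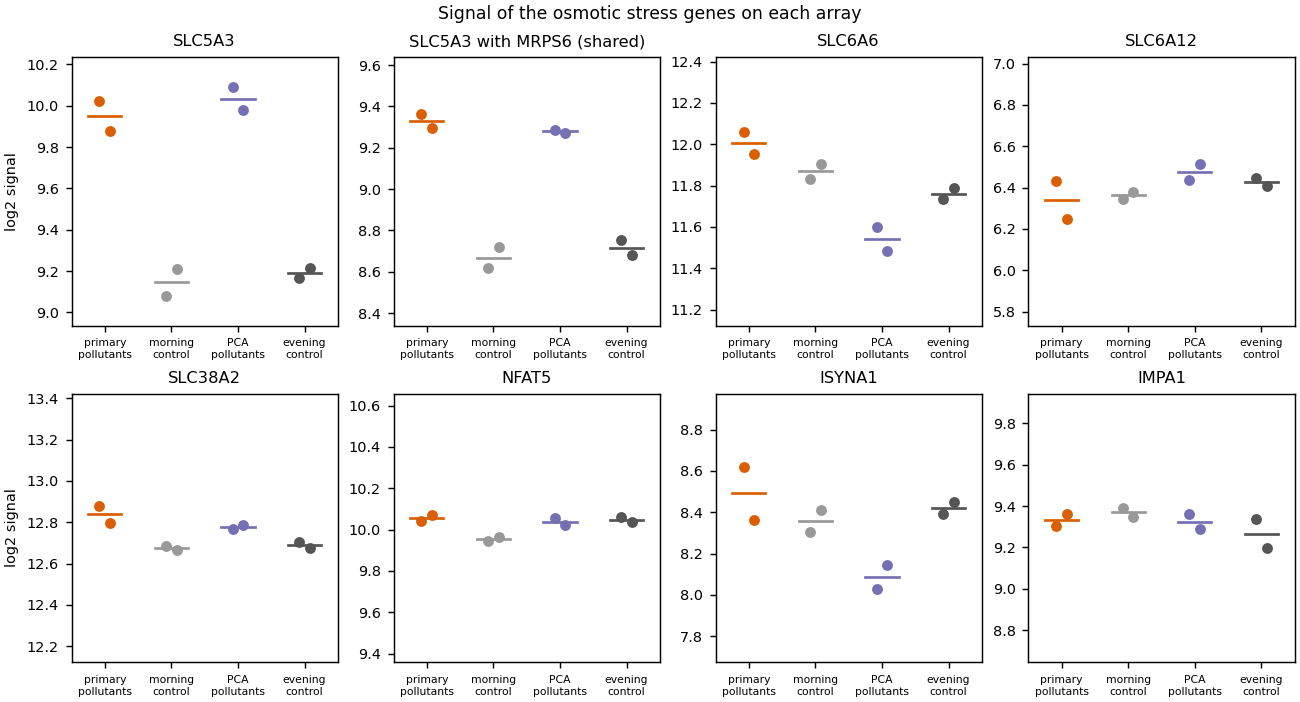
Log2 signal (vertical axis, the same span of 1.3 in each panel) of the 7 genes read and of the probe set shared by SLC5A3 and MRPS6, for each of 4 groups. Points are arrays and bars are means of 2 arrays. Both SLC5A3 panels show the exposed arrays above the controls, and the other panels show smaller distances.

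Of the 7 genes read, 0 passed the test after the primary pollutants, where limma called 0 of 17381 genes (0%), and 2 of the 7 had an unadjusted p under 0.05, SLC5A3 and SLC38A2, against 7.9% of all genes (1373). With a prior for the spread that was trended and robust, limma called 6 genes in that comparison, SLC5A3 the single member among them, and an unadjusted analysis of variance gave 14. Set against the evening controls, the primary pollutant arrays gave 25 calls by limma, SLC5A3 again the single member, with a log2 fold change of 0.76 (adjusted p = 0.0413). After the PCA pollutants 1 of 7 rose and 0 fell, where limma called 617 of 17470 genes (3.53%), 153 higher (0.876%) and 464 lower (2.66%). Over both mixtures 1 of 7 was called, against 0.57% of all genes. The 1 call was SLC5A3 in each case. The difference of the 2 responses was called for 0 of 7, against 0.439% of all genes, and 2 of 7 had an unadjusted p under 0.05 for it, SLC6A6 and ISYNA1, both lower, against 17.6% of all genes (11.4% lower and 6.2% higher). Between the evening and morning controls limma called 0 of 7, and 0 of 17310 genes, 860 of which had an unadjusted p under 0.05.

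**Figure D2:**
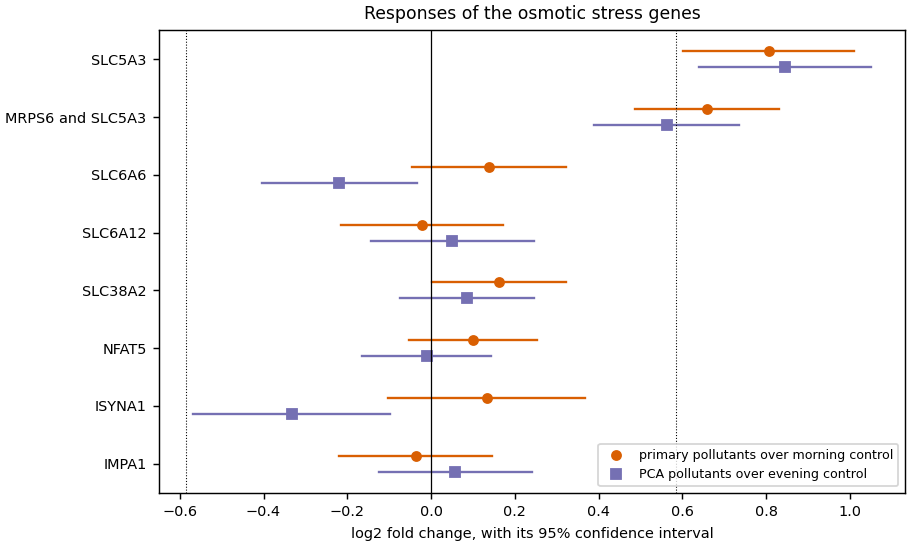
Log2 fold change (horizontal axis) with its 95% confidence interval from limma, for each gene after the primary pollutants (circles) and the PCA pollutants (squares). Dotted lines mark a fold change of 1.5. The SLC5A3 intervals run from 0.602 to 1.01 and from 0.641 to 1.05.

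A probe set that carries both SLC5A3 and MRPS6 gave a second reading of the locus. MRPS6 has no probe set of its own here, so its RNA cannot be read apart from that of SLC5A3. The shared probe set had 9.36 and 9.30 after the primary pollutants, against 8.62 and 8.72 in the morning controls, and 9.28 and 9.27 after the PCA pollutants, against 8.75 and 8.68 in the evening controls. The groups did not overlap in either comparison, as for 38.7% of all genes after the primary and 68.3% after the PCA pollutants. The log2 fold changes were 0.66 (standard error 0.0743, limma adjusted p = 0.234) and 0.56 (standard error 0.0743, limma adjusted p = 0.00407). The second was under the 1.5-fold limit, so the shared probe set did not pass after the PCA pollutants, and it was called over both mixtures (0.61, limma adjusted p = 0.00203). Of the 7 genes near SLC5A3 on chromosome 21 that were tested, SLC5A3 included, 1 rose and 0 fell after the PCA pollutants. The rise was that of SLC5A3 itself, and of all genes 0.876% rose and 2.66% fell. The median log2 fold change of the 7 was -0.00579, against -0.00169 over all genes. KCNE1, a potassium channel subunit, was at 0.19 (adjusted p = 0.176), ATP5PO, a subunit of ATP synthase, at -0.18 (adjusted p = 0.145) and ITSN1, an endocytic scaffold, at -0.26 (adjusted p = 0.0395, under 1.5-fold), all by limma.

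The taurine carrier SLC6A6 lay on opposite sides of its controls after the 2 mixtures. Its log2 signal was 12.06 and 11.95 after the primary pollutants, against 11.83 and 11.90 in the morning controls, and 11.60 and 11.48 after the PCA pollutants, against 11.73 and 11.79 in the evening controls. The groups did not overlap in either comparison, but the log2 fold changes of 0.14 (standard error 0.0794, limma adjusted p = 0.682) and -0.22 (standard error 0.0794, limma adjusted p = 0.0883) did not pass. Of all genes, 38.7% had groups that did not overlap after the primary pollutants and 68.3% after the PCA pollutants, so this separation was common. The difference of the 2 responses was -0.36 (standard error 0.112, unadjusted p = 0.0138, limma adjusted p = 0.172). Higher on both arrays after the primary and lower on both after the PCA pollutants was the pattern of 2.85% of 17311 genes. SLC6A6 was in the part of highest signal, whose median after the PCA pollutants was -0.13.

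The betaine carrier SLC6A12 stayed within the spread of its controls or close to it. Its log2 signal was 6.43 and 6.25 after the primary pollutants, against 6.34 and 6.38 in the morning controls, and 6.44 and 6.52 after the PCA pollutants, against 6.45 and 6.41 in the evening controls. The groups overlapped in both comparisons, with log2 fold changes of -0.02 (95% confidence interval -0.216 to 0.172) and 0.05 (-0.143 to 0.245). Its mean log2 signal of 6.4 was low, at the level of the markers of other cell types (6.32 to 6.49). A response of its RNA could be missed at that signal.

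SLC38A2, which carries alanine, serine, glutamine and other neutral amino acids and is raised in hypertonic cells and in cells short of amino acids, was slightly above its controls on all exposed arrays. It was at 12.88 and 12.80 after the primary pollutants, against 12.68 and 12.67 in the morning controls, and at 12.77 and 12.79 after the PCA pollutants, against 12.71 and 12.68 in the evening controls. All 4 exposed arrays lay above all 4 controls, as for SLC5A3, a pattern of 4.78% of all genes. The log2 fold changes were 0.16 (standard error 0.0685, limma adjusted p = 0.581) and 0.09 (standard error 0.0685, limma adjusted p = 0.387), and over both mixtures 0.12 (95% confidence interval 0.0113 to 0.237, limma adjusted p = 0.125).

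NFAT5 had nearly the same signal on all arrays. It was at 10.04 and 10.07 after the primary pollutants, against 9.95 and 9.97 in the morning controls, and at 10.05 and 10.02 after the PCA pollutants, against 10.06 and 10.04 in the evening controls. The groups did not overlap after the primary pollutants, as for 38.7% of all genes, and overlapped after the PCA pollutants. The log2 fold changes were 0.10 (95% confidence interval -0.0535 to 0.254, limma adjusted p = 0.733) and -0.01 (-0.164 to 0.143, limma adjusted p = 0.919). NFAT5 is governed in large part by the movement of its protein into the nucleus, which an array of RNA does not measure.

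Of the enzymes of inositol, ISYNA1 lay below its controls after the PCA pollutants, short of the threshold, and IMPA1 overlapped its controls after both mixtures. ISYNA1 was at 8.62 and 8.36 after the primary pollutants, against 8.30 and 8.41 in the morning controls, which overlapped. It was at 8.03 and 8.15 after the PCA pollutants, against 8.39 and 8.45 in the evening controls, which did not. Such a separation was met in 68.3% of all genes in that comparison. The log2 fold change after the PCA pollutants was -0.33 (standard error 0.101, unadjusted p = 0.0118), and the limma adjusted p of 0.0551 missed the threshold. After the primary pollutants it was 0.13 (standard error 0.101, limma adjusted p = 0.775), between 0.0061 without primary replicate 1 and 0.26 without primary replicate 2, and the difference of the responses was -0.47 (standard error 0.143, limma adjusted p = 0.163). IMPA1 was at 9.30 and 9.36 after the primary pollutants, against 9.39 and 9.35 in the morning controls, and at 9.36 and 9.29 after the PCA pollutants, against 9.34 and 9.20 in the evening controls. Its log2 fold changes were -0.04 (95% confidence interval -0.219 to 0.146) and 0.06 (-0.125 to 0.24).

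**Figure D3:**
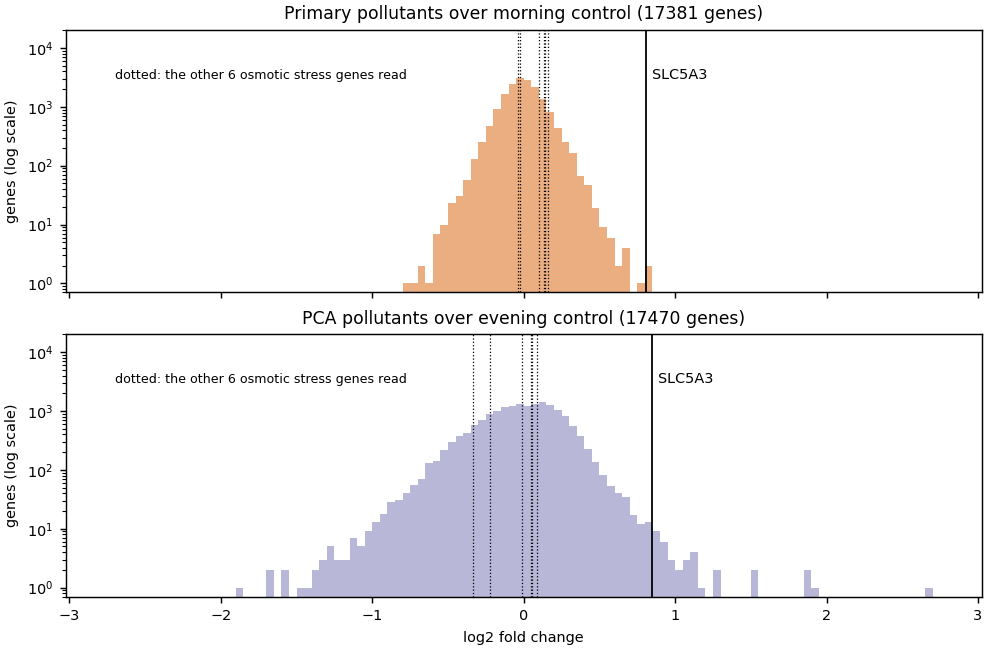
Number of genes (vertical axis, log scale) by log2 fold change (horizontal axis) after the primary pollutants (17381 genes) and the PCA pollutants (17470 genes). The solid line marks SLC5A3, at 0.81 and 0.85, and dotted lines mark the other 6 genes, which lie between -0.04 and 0.16 in the upper panel and between -0.33 and 0.09 in the lower.

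The size of the SLC5A3 value stood in a different place in the 2 comparisons. After the primary pollutants 18 of 17381 genes had a fold change of at least 1.5 in either direction (0.104%), and SLC5A3 was among them. After the PCA pollutants 643 of 17470 genes did (3.68%), and SLC5A3 was 40th by fold change among genes that were higher. Over both mixtures it was 11th of 17540.

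Genes that NFAT5 is known to activate, in kidney, immune or other cells, were counted as a list, of which 22 were tested. AKR1B1, HSPA1A and HSPA1B were not analysed here. After the PCA pollutants 3 of 22 rose and 0 fell, and after the primary pollutants 0 did either, against 0.876% of all genes that rose after the PCA pollutants. The 3 were SLC5A3, CCL2 and HAS2. The list was chosen with earlier results of these data known, and the higher SLC5A3 signal was among them. SLC5A3 is in every count and median of this list, here and below, so these are not independent evidence. CCL2, a chemokine that draws monocytes and that NF-kB also activates, was at 8.84 and 8.55 after the PCA pollutants, against 7.68 and 7.77 in the evening controls (log2 fold change 0.97, standard error 0.111, limma adjusted p = 0.00256). It was at 8.70 and 8.74 after the primary pollutants, against 7.80 and 7.97 in the morning controls (0.84, limma adjusted p = 0.268). HAS2, which makes hyaluronan, was at 8.81 and 8.43 after the PCA pollutants, against 7.56 and 7.43 in the evening controls (log2 fold change 1.13, standard error 0.14, limma adjusted p = 0.00328). HAS2 was at 7.93 and 7.69 after the primary pollutants, against 7.69 and 7.56 in the morning controls (0.19, limma adjusted p = 0.771). The CCL2 values were near in size to those of SLC5A3 after both mixtures. For HAS2 the difference of the responses was 0.94 (standard error 0.198, limma adjusted p = 0.0874), which did not pass.

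The median log2 fold change of the 22 tested genes was 0.18 after the PCA pollutants and 0.16 after the primary pollutants, with 18 of 22 above 0 in each, against medians of -0.00169 and -0.00724 over all genes, of which 49.7% and 47.4% were above 0. Markers of other cell types also lay mostly above 0, with 12 of 14 tested after the PCA pollutants (median 0.13) and 10 of 14 after the primary pollutants (median 0.05). Of the type II genes, 6 of 8 lay above 0 after the PCA pollutants (median 0.125) and 5 of 8 after the primary pollutants (median 0.07). There were 0 calls in either marker list, where 3.53% of all genes were called after the PCA pollutants and 0% after the primary pollutants. The cells were a single line, and most of these markers had low signals. In the part of all genes with lowest signal the medians were 0.135 after the PCA and 0.03 after the primary pollutants. The list also held genes of low signal, such as AQP1 (mean log2 signal 5.71) and SLC14A2 (5.99). The part of low signal in the shift of the list was not tested. Under 4 other scalings the median of the list stayed between 0.12 and 0.32 after the PCA pollutants, where the median of all genes was between -0.0622 and 0.138. The median signal of the list was 8.29. At an unadjusted p under 0.05, 9 of the 22 were higher and 3 lower after the PCA pollutants, against 14.5% and 22.5% of all genes. After the primary pollutants 5 were higher and 1 lower, against 3.27% and 4.63%. Over both mixtures 13 were higher and 2 lower, against 12.2% and 20.1%. SLC12A2, the sodium, potassium and chloride cotransporter that hypertonic cells use to regain volume, had one of the lower values after the PCA pollutants (-0.31, limma adjusted p = 0.0217), under 1.5-fold.

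**Figure D4:**
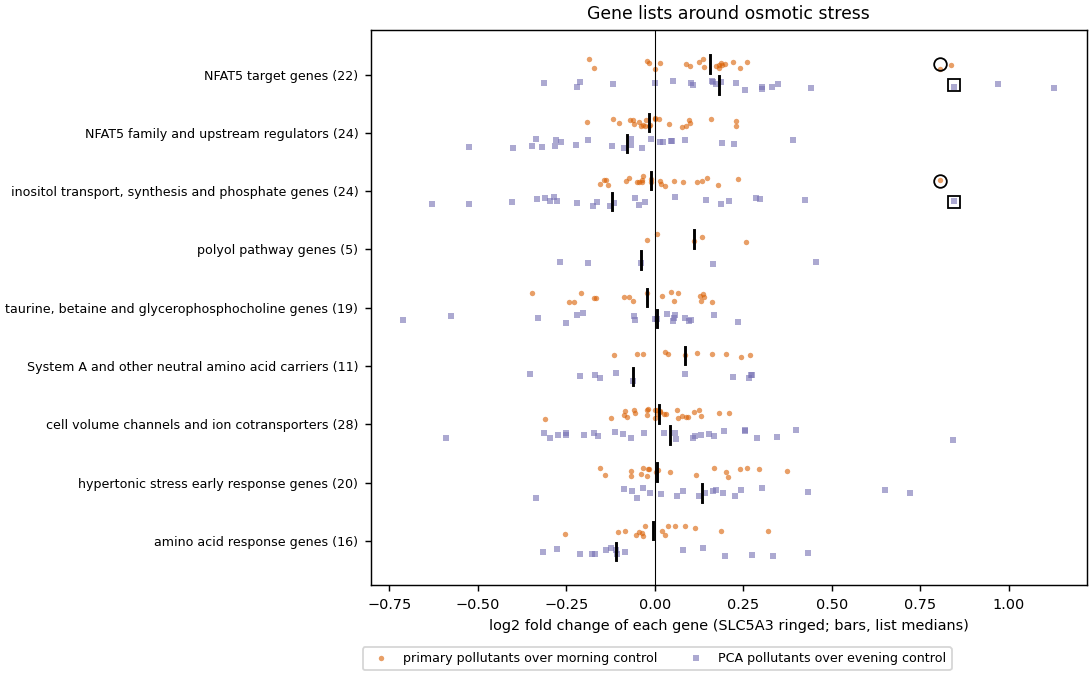
Log2 fold change (horizontal axis) of each tested gene in 9 lists, after the primary pollutants (circles) and the PCA pollutants (squares), with the number tested in brackets, list medians as bars and SLC5A3 ringed. The list of NFAT5 targets had medians of 0.16 and 0.18, and SLC5A3 lay far from the other inositol genes in both comparisons.

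The NFAT family and the kinases and carriers that act on NFAT5 held no call in 24 tested genes. Of all genes, 3.53% were called after the PCA pollutants and 0% after the primary pollutants, so few calls would be met in any list of this size. Its median was -0.0775 after the PCA pollutants and -0.0149 after the primary pollutants. After the PCA pollutants 2 kinases above p38 went opposite ways, MAP2K3 at 0.39 (limma adjusted p = 0.0158) and MAP2K6 at -0.40 (limma adjusted p = 0.0213). ATM, a DNA damage kinase, was at -0.52 (limma adjusted p = 0.00883), PLCG1, a phospholipase, at -0.35 (limma adjusted p = 0.0168) and NFATC3 at -0.33 (limma adjusted p = 0.0188). All of these were under 1.5-fold.

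Among genes of inositol transport, synthesis and phosphates, SLC5A3 was the single rise. Of 24 tested, 1 rose and 1 fell after the PCA pollutants and 0 did either after the primary pollutants, and the median after the PCA pollutants was -0.12. The shares of all genes that rose and fell after the PCA pollutants were 0.876% and 2.66%. The fall was IP6K2, a kinase that makes pyrophosphates of inositol, at 8.37 and 8.34 after the PCA pollutants, against 8.98 and 8.99 in the evening controls (log2 fold change -0.63, standard error 0.0744, limma adjusted p = 0.00284). The call of IP6K2 was lost under quantile, cyclic loess and ribosomal scaling, where its fold change fell under the limit. PI4KA, which makes the first phosphoinositide lipid from phosphatidylinositol, was at -0.52 (limma adjusted p = 0.00879) and BPNT1, a phosphatase of bisphosphate nucleotides and inositols, at -0.40 (limma adjusted p = 0.0113), both under 1.5-fold. Of the other inositol carriers, SLC2A13 was at 0.24 after the primary pollutants (limma adjusted p = 0.504). It was at 0.21 after the PCA pollutants (limma adjusted p = 0.0858) and 0.22 over both mixtures (limma adjusted p = 0.0346), under 1.5-fold. SLC5A11 was at -0.01 after the primary and -0.29 after the PCA pollutants (limma adjusted p = 0.0386), under 1.5-fold.

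In the polyol pathway, which makes sorbitol and fructose, 0 of 5 tested genes were called after either mixture. The shares of all genes called were 3.53% after the PCA pollutants and 0% after the primary pollutants. AKR1B1, SORD and AKR1A1 were not analysed here because the probe annotation used gave them no probe set of their own. Whether these genes changed with SLC5A3 is therefore not known from the values read here. AKR1B10, a close relative of AKR1B1 known to be abundant in A549 cells, was at 13.12 and 13.30 after the primary pollutants, against 13.08 and 13.08 in the morning controls, and at 13.17 and 13.27 after the PCA pollutants, against 13.11 and 13.01 in the evening controls. Its log2 fold changes were 0.13 (limma adjusted p = 0.735) and 0.17 (limma adjusted p = 0.208). HK2, a hexokinase, had wide spread in its controls (0.46 after the PCA pollutants, standard error 0.2, limma adjusted p = 0.141).

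For taurine, betaine and glycerophosphocholine, 19 genes were tested, and 0 rose and 1 fell after the PCA pollutants, against 2.66% of all genes that fell. The fall was SLC44A2, a choline carrier, at 7.63 and 7.79 after the PCA pollutants, against 8.42 and 8.43 in the evening controls (log2 fold change -0.71, standard error 0.0982, limma adjusted p = 0.00477). The call was lost when the arrays were scaled to ribosomal protein genes. CSAD, which makes the precursor of taurine, was at -0.58 after the PCA pollutants (limma adjusted p = 0.0133), just under 1.5-fold, and at -0.35 after the primary pollutants (limma adjusted p = 0.504). ALDH7A1, which makes betaine from its aldehyde, was at -0.33 (limma adjusted p = 0.0213) after the PCA pollutants. CSAD and ALDH7A1 lay below their controls on all arrays of both comparisons, as did 36.6% of all genes after the PCA pollutants and 21.7% after the primary pollutants. All 4 exposed arrays lay below all 4 controls for both, as for 10% of all genes. Other enzymes of the list were not lower with them. After the PCA pollutants CDO1 was at 0.10, ADO at 0.10, CHDH at 0.06 and GADL1 at -0.06, none of them called. The carriers SLC6A6 and SLC6A12 were not called.

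Of 11 neutral amino acid carriers, SLC38A2 included, 0 were called after either mixture. For these and the next list, the shares of all genes called were 3.53% after the PCA and 0% after the primary pollutants. SLC38A1, the sister of SLC38A2, was at 0.27 after the PCA pollutants (limma adjusted p = 0.0422, under 1.5-fold), and the glycine carrier SLC6A9 at 0.27 (limma adjusted p = 0.0743). SLC38A9, a lysosomal sensor of arginine, was at -0.35 (limma adjusted p = 0.0646). The 16 amino acid response genes, which ATF4 governs and among which SLC38A2 is often counted, held 0 calls, with medians of -0.00463 after the primary and -0.11 after the PCA pollutants. PSAT1, of serine synthesis, was at 0.33 (limma adjusted p = 0.0217) and TRIB3, a brake on ATF4, at 0.27 (limma adjusted p = 0.044) after the PCA pollutants, under 1.5-fold. The evening controls of PSAT1 were at -0.31 against the morning controls, with group means of 9.72 and 10.03. Its means were 10.05 after the primary and 10.06 after the PCA pollutants. PSPH, also of serine synthesis, was at -0.32 (limma adjusted p = 0.0612), and ATF3, a transcription factor of the stress response, at 0.43 (limma adjusted p = 0.0204).

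Channels and cotransporters that set cell volume gave 1 rise and 1 fall in 28 genes tested after the PCA pollutants, and 0 calls after the primary pollutants, where 0.876% of all genes rose and 2.66% fell after the PCA pollutants. AQP3, a channel for water and glycerol, rose, at 11.22 and 11.14 after the PCA pollutants, against 10.31 and 10.36 in the evening controls (log2 fold change 0.84, standard error 0.0808, limma adjusted p = 0.00167). It was at 10.37 and 10.22 after the primary pollutants, against 10.13 and 10.20 in the morning controls (0.13, limma adjusted p = 0.712), and the difference of the responses was 0.71 (standard error 0.114, limma adjusted p = 0.0549). AQP3 and SLC5A3 were alike in size after the PCA pollutants, at 0.84 and 0.85, and were at 0.13 and 0.81 after the primary pollutants. SCNN1A, a subunit of the sodium channel that dries the airspace, fell by 0.59 on the log2 scale (standard error 0.103, limma adjusted p = 0.0101), close to the limit, and the call was lost without PCA replicate 2, without evening control replicate 2, and under cyclic loess and ribosomal scaling. KCNN4, a calcium-gated potassium channel used in volume decrease, was at 0.40 (limma adjusted p = 0.0151, under 1.5-fold).

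Of 20 early genes of hypertonic stress, 2 rose and 0 fell after the PCA pollutants, and 6 had an unadjusted p under 0.05 after the primary pollutants, all higher, with 0 called. Of all genes, 0.876% rose after the PCA pollutants, and 3.27% were higher at an unadjusted p under 0.05 after the primary pollutants. Between the evening and morning controls, 4 of the 20 were higher and 3 lower at an unadjusted p under 0.05. The shares of all genes there were 2.83% and 2.14%, so this list also differed between the controls. DUSP1, a phosphatase that switches off p38 and related kinases, was at 11.37 and 11.23 after the PCA pollutants, against 10.58 and 10.58 in the evening controls (log2 fold change 0.72, standard error 0.0872, limma adjusted p = 0.00302), and 0.37 after the primary pollutants (limma adjusted p = 0.455). HSPH1, a large heat shock protein, was at 11.55 and 11.53 after the PCA pollutants, against 10.98 and 10.80 in the evening controls (log2 fold change 0.65, standard error 0.0817, limma adjusted p = 0.00338), and its call was lost without evening control replicate 2. The evening controls of HSPH1 and DUSP1 lay below the morning controls, by 0.27 and 0.20 on the log2 scale. HSPB1, a small heat shock protein, was at -0.34 (limma adjusted p = 0.0233, under 1.5-fold). These genes also answer to heat, oxidants and inflammation, and none of them is particular to osmotic stress.

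The 6 genes whose signal ran closest to that of SLC5A3 over the 8 arrays, among 4782 tested genes with a range of at least 0.5 on the log2 scale, were CCL2 (r = 0.973), NFKBIA (r = 0.965), GABRB2 (r = 0.958), OAS1 (r = 0.955), APLNR (r = 0.954) and PAQR5 (r = 0.952). These correlations describe 8 arrays in which exposed and control wells are the main division, and points in a group share a run. CCL2 and NFKBIA, an inhibitor of NF-kB, had values of similar size after both mixtures, as SLC5A3 had. NFKBIA was at 0.59 after the primary pollutants (standard error 0.0716, limma adjusted p = 0.255) and rose by 0.61 after the PCA pollutants (standard error 0.0716, limma adjusted p = 0.00273). OAS1, an interferon-induced synthetase, was at 0.70 and 1.28, and PAQR5, a membrane receptor of the progestin family, at 0.66 and 1.13, both rising after the PCA pollutants (limma adjusted p = 0.000699 and 0.00119). GABRB2, a subunit of a receptor for GABA, and APLNR, the apelin receptor, had low signals, with group means of 5.79 to 6.31, and were not called. Of the other members, SLC6A6 and ISYNA1 had the range to be candidates and were not among the 6. SLC6A12, SLC38A2, NFAT5 and IMPA1 ranged over less than 0.5 and could not be listed. Their absence therefore says nothing of how closely they followed SLC5A3.

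**Figure D5:**
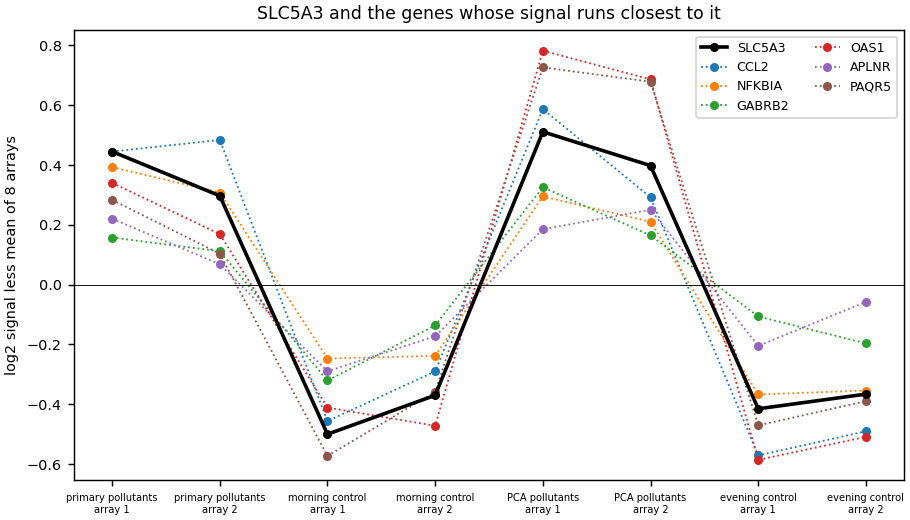
Log2 signal less the mean over the 8 arrays (vertical axis) of SLC5A3 (black) and the 6 genes of highest correlation with it, for each array of the 4 groups (horizontal axis). All 7 lines lie above 0 on the exposed arrays and below 0 on the controls, and OAS1 and PAQR5 are highest on the PCA arrays.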

How the data were processed

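RNA of A549 cells was measured on 8 Affymetrix arrays of the type Human Gene 1.0 ST, with 2 per group. The authors applied robust multichip average normalization (Partek 6.4 is named in the submitters' processing notes) and deposited log2 values. Of 28869 probe sets, 19310 carry 1 gene symbol, 1752 several and 7807 none, and for each of 18377 genes the probe set with the highest mean was used. Names, positions and promoters come from RefSeq, GRCh38.p14.

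Group means were fitted in limma 3.58.1 under R 4.3.3 (lmFit, eBayes), over probe sets whose signal reached 30 on at least 1 array. Benjamini-Hochberg adjustment ran over the probe sets that reached 30 in the comparison, those without a symbol included. Medians and counts of lists are descriptions with no test. The fit was first tested on simulated data. The number of arrays limits the precision. Plots were made with matplotlib 3.10.9 under Python 3.11.15.

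The members and lists were chosen with earlier results of these data known. Genes named are the members, MRPS6, in each list up to 4 of smallest p for the PCA pollutants and every gene called, and the 6 with the highest correlation with SLC5A3; all others were chosen after their values were seen. Alternatives covered the filter, scaling, spread, test, fold limit, probe sets, pairing, controls and each array left out. The numbers of the arrays did not pair them: deviations from the group means correlated at -0.109 between primary and morning control arrays and at 0.0308 between PCA and evening control arrays.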

Additional observations from a re-analysis of the deposited data

Results flagged for a closer look

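Of the 47 genes named by the rule above and tested in both comparisons, 5 lay on opposite sides of their controls. Both arrays lay above the morning controls after the primary pollutants, and both lay below the evening controls after the PCA pollutants. This was the pattern of 493 of 17311 genes (2.85%), and the test of the difference passed for none of the 5. The PCA response less the primary response was -0.358 for SLC6A6 (limma adjusted p = 0.172), -0.381 for HK1, a hexokinase (limma adjusted p = 0.136), -0.413 for SLC44A1, a choline carrier (limma adjusted p = 0.125), -0.241 for SLC7A5, a carrier of large neutral amino acids (limma adjusted p = 0.321), and -0.411 for NFATC3 (limma adjusted p = 0.112). At an unadjusted p under 0.05, 17.6% of all genes passed this difference, more of them lower (11.4%) than higher (6.2%).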

How the results depend on the processing

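SLC5A3 was higher after each mixture under all alternatives. Its log2 fold change ran between 0.66 and 0.90 after the primary and between 0.56 and 0.98 after the PCA pollutants. After the primary pollutants SLC5A3 was called, and so 1 member, with a trended and robust prior and by an unadjusted analysis of variance (0.81 in both) and with exchanged controls (0.76). A test against a fold of 1.5 ended its calls after the PCA pollutants (0.85) and over both mixtures (0.83), leaving 0 members called in each. The probe set shared with MRPS6, added after the data were seen, ended the PCA call by its fold change (0.56). Leaving out each array in turn, SLC5A3 ran between 0.73 and 0.88 after the primary pollutants with 0 members called, between 0.79 and 0.90 after the PCA pollutants and between 0.79 and 0.86 over both mixtures with 1 member called.

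The difference of the SLC5A3 responses was -0.00362 with arrays centred on their medians, -0.0967 on the shared probe set, and between -0.0349 and 0.113 as each array was left out. Other changes of sign were of uncalled values near 0, and the cause was not tested. With median centring these were SLC6A12 (-0.0093) and IMPA1 (-0.00298) after the PCA pollutants, and SLC6A12 (-0.0247) and IMPA1 (-0.0287) over both mixtures. With quantile normalization they were SLC6A12 (-0.0497) and NFAT5 (0.0896) after the PCA pollutants, and SLC6A12 (-0.051) and SLC6A6 (0.00357) over both mixtures. With cyclic loess they were SLC6A12 (-0.0665) and NFAT5 (0.126) after the PCA pollutants, SLC6A6 (0.02995) and SLC6A12 (-0.0601) over both mixtures, and the differences of responses of SLC6A12 (-0.0129), SLC38A2 (0.0189) and NFAT5 (0.00307). Scaling to 62 ribosomal protein genes, which moved the median of all genes to 0.0867 after the primary and 0.138 after the PCA pollutants, gave SLC6A12 (0.0719) and IMPA1 (0.0575) after the primary pollutants, NFAT5 (0.129) after the PCA pollutants, and SLC6A6 (0.0763) and ISYNA1 (0.0169) over both mixtures. With exchanged controls they were IMPA1 after the primary (0.0666) and the PCA pollutants (-0.0455), NFAT5 after the PCA pollutants (0.0823), and the differences of responses of IMPA1 (-0.112) and NFAT5 (0.0752). As arrays were left out, SLC6A12 ran from -0.114 to 0.0697 after the primary pollutants, from -0.0313 to 0.0605 over both mixtures and from -0.0185 to 0.165 in the difference of responses. NFAT5 then ran from -0.0277 to 0.00635 and IMPA1 from -0.0121 to 0.127 after the PCA pollutants, and IMPA1 from -0.0243 to 0.0454 over both mixtures.

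With the replicate number as a block, limma called 0 genes after the primary pollutants, 611 after the PCA pollutants and 98 over both mixtures, and no call of a member changed; with the primary arrays crossed it called 0. A test against a fold of 1.5 left 28 genes after the PCA pollutants and 0 over both mixtures, and with no fold limit limma called 3441 and 2489. After the PCA pollutants the split of calls was 153 higher and 464 lower as deposited, 104 and 669 with median centring, and 421 and 202 with ribosomal scaling.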
